A study of Mus musculus with 5 samples.

Results

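Interleukin receptor genes are described here in long-term haematopoietic stem cells (LT-HSCs) of mice that had lost LRF, the transcriptional repressor encoded by Zbtb7a. Members were the genes whose symbol begins with Il, a number and r and that had a probe set annotated to them alone, without Il7r, Il2ra, Il2rb and Il1rl1. The rule gave 33 genes of 18193 on the arrays, and each was read from its brightest probe set by the mean over all arrays. Of these, 23 had a mean log2 intensity of at least 5.77, the level below which the dimmest 40% of probe sets lay, and 10 were dim. The rule works on symbols, so it also took in Il1rn, which encodes a secreted antagonist and not a receptor.

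RNA came from LT-HSCs of C57BL/6 mice aged 4 weeks, hybridised to 5 Affymetrix arrays. The 2 controls were Zbtb7a Flox/+ Mx1-Cre+, which the labels class as heterozygous for LRF and not as wild type, and the 3 knockouts were Zbtb7a Flox/Flox Mx1-Cre+. Controls thus carried 1 floxed allele and knockouts had no allele without it. All of them carried Cre under the interferon-inducible Mx1 promoter, and all had received 2 injections of 250 µg pIpC, a double-stranded RNA analogue that induces interferon. Sorting took place 9 days after the first injection, on LSK cells (the marrow fraction that holds stem and early progenitor cells) with CD150 and without IL7Ra, Flt3 and CD48. The Mx1 promoter is active in many cell types, so loss of Zbtb7a was not restricted to stem cells. For knockout 3 the description seems to name 2 animals, although the protocol speaks of 3 knockout mice, so whether its RNA was pooled is not settled. The p-values measure the spread between these arrays.

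Interleukin receptors are assembled from a ligand-binding chain and a signalling chain that several receptors share. Chains of the IL-1 and IL-18 family signal through MyD88 and IRAK kinases, those of the IL-17 family through the adaptor Act1, and the other cytokine receptor chains through JAK kinases and STAT factors. In the bone marrow these receptors are best known on lymphoid, myeloid and mast cells, while stem cells are known to respond to IL-1 and IL-6 among others. Some members, such as the IL-1 decoy receptor encoded by Il1r2 and the soluble IL-22 binding protein encoded by Il22ra2, take up ligand without signalling.

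No interleukin receptor gene passed the test for a difference between knockout and control. In limma with Benjamini-Hochberg adjustment, 0 of 23 members had an adjusted p under 0.05 and 0 an unadjusted p under 0.05, and over all 27022 probe sets tested 0% passed after adjustment and 1.13% had an unadjusted p under 0.05. The smallest unadjusted p of a member was 0.0981, and every adjusted p was 1. The members were spread evenly around no difference, with 12 higher and 11 lower in knockouts and a median log2 difference of 0.0087, beside -0.03 over 12813 genes. The single differences ran from -0.71 to 1.36. The members varied more among the knockouts than genes at large, given as a description with no test. The median SD over the 3 knockouts was 0.56 for members and 0.29 over all genes, while the median difference between the 2 controls was 0.34 and 0.30.

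**Figure D1:**
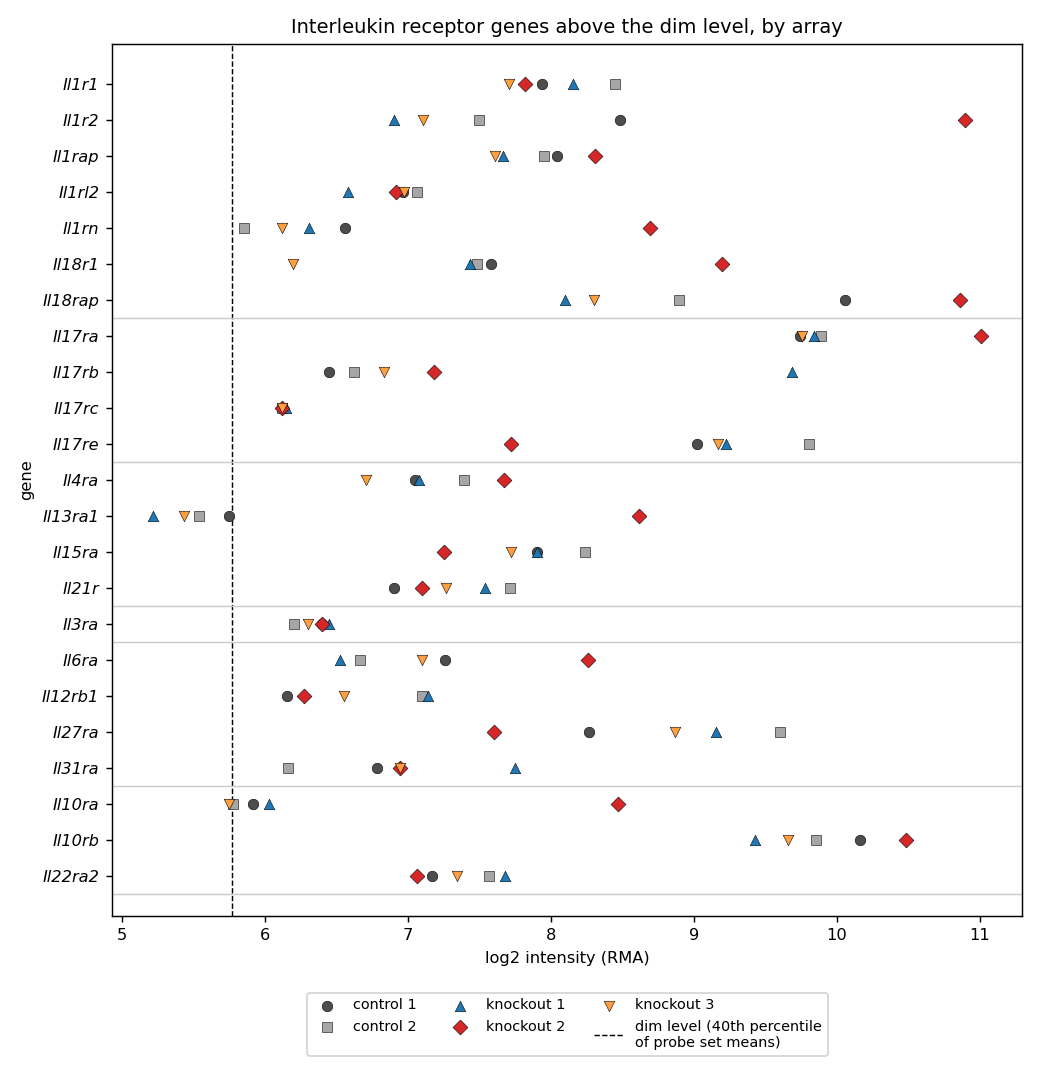
Log2 intensity (horizontal axis) of the 23 interleukin receptor genes above the dim level, 1 row per gene and 1 symbol per array, with grey lines between receptor families and a dashed line at 5.77. Knockout 2 (red diamonds) lies apart on the right for Il1r2, Il1rn, Il18r1, Il17ra, Il13ra1 and Il10ra, and knockout 1 (blue triangle) for Il17rb.

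Median log2 intensity was 6.38 to 6.40 on every array. Knockout 2 stood apart over the whole array: its correlation with the other arrays over all probe sets was 0.945 to 0.970, against 0.977 to 0.990 for the other pairs. None of the 3 Zbtb7a probe sets separated the groups (log2 differences -0.36, -0.05 and 0.41). Where the floxed segment lies is not given in the labels, so these probe sets cannot check the deletion. Of the sort's own markers, Kit read 11.12 and 11.82 in controls and 11.34, 9.60 and 11.48 in knockouts 1, 2 and 3, and Slamf1, which encodes CD150, 8.30 and 9.16 against 8.06, 6.60 and 8.95. Both were lowest in knockout 2. Transcripts of the genes for all 3 excluded proteins lay above the dim level, and Cd48 reached 9.97 in knockout 2 against 7.87 to 8.59 elsewhere. Il7r, which encodes IL7Ra, read 6.21 and 7.30 in controls and 9.35, 10.50 and 7.44 in knockouts 1, 2 and 3. Flt3 read 8.41 and 9.50 against 8.92, 8.56 and 8.25, with overlapping groups. Fewer cells of a type and less RNA per cell cannot be told apart in such bulk samples.

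Promoter sequence is shown for 5 genes on which the results turn: Il17rb and Il31ra, the members whose knockout values all lay above both controls, and Il1r2, Il1rn and Il13ra1, 3 of the members that lay far higher in knockout 2. Each run is the 250 bases before the annotated start (RefSeq, GRCm38.p6; of several windows of Il1rn the most upstream), 5′ to 3′ along the gene. Capitals mark every match, on either strand, to TGANTCA (the AP-1 site of Fos and Jun), TTCNNNGAA (the STAT site) and GACCC (a short core reported for LRF). None of the matches in these 5 windows overlap.
Il17rb, chr14:30008897-30009146, minus strand: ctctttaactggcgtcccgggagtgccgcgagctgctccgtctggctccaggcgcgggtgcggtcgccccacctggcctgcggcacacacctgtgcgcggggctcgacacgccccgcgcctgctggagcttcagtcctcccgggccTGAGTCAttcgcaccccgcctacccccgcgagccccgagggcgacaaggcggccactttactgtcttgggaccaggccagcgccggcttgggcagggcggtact
Il31ra, chr13:112580663-112580912, minus strand: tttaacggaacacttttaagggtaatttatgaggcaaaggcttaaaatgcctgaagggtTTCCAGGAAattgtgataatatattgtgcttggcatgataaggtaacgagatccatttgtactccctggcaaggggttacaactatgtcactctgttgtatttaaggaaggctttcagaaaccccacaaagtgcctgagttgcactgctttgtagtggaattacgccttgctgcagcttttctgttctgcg
Il1r2, chr1:40085843-40086092, plus strand: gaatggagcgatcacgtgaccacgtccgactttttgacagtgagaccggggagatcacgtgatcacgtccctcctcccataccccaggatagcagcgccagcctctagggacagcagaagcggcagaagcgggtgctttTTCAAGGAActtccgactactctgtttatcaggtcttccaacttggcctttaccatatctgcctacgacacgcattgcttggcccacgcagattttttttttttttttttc
Il1rn, chr2:24336610-24336859, plus strand: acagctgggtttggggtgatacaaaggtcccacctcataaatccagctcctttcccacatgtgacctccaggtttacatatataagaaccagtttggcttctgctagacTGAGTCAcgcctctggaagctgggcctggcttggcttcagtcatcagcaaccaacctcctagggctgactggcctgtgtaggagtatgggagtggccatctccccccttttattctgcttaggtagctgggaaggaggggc
Il13ra1, chrX:36111858-36112107, plus strand: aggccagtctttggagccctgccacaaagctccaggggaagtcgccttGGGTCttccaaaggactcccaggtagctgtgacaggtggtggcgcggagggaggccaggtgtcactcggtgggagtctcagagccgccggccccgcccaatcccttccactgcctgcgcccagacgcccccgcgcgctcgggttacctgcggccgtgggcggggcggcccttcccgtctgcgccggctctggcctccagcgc

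A window was at hand for 27 members, with 33 windows in all, since some genes have several starts. TGANTCA was found in 7 of these windows and in 6.75% of 32851 windows of all genes. Members above the dim level had 23 windows, of which 3 held it: that of Il17rb, the upstream window of Il1rn and 1 of Il15ra. The other windows with this match belonged to the dim members Il13ra2, Il20ra, Il22ra1 and Il5ra. TTCNNNGAA was found in 4, including those of Il31ra and Il1r2 and 1 of the windows of Il18r1, and in 7.02% of all. GACCC occurred in 12 of the 33 and in 38.7% of all windows, so that a match to these 5 letters is common. A match describes the letters of the window and not binding.

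Il17rb, which encodes the chain that binds IL-25, showed the largest difference. It read 6.45 and 6.62 in the controls and 9.68, 7.18 and 6.83 in knockouts 1, 2 and 3. All knockouts thus lay above both controls, but knockout 3 exceeded the higher control by little and knockout 1 stood 2.50 above the next array. The means were 6.53 ± 0.13 (SD, n = 2) and 7.90 ± 1.56 (SD, n = 3), a log2 difference of 1.36 (SE 0.94; 2.57-fold), with a limma adjusted p of 1. Without knockout 1 the difference was 0.47. Il17rb has 1 probe set, so no second reading was at hand.

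Il31ra, which encodes the ligand-binding chain for IL-31, was the other member without overlap. Its controls read 6.78 and 6.16 and its knockouts 7.75, 6.94 and 6.94. The log2 difference was 0.74 (SE 0.36; limma adjusted p = 1), and it was 0.43 without control 2 and 1.05 without control 1. Without knockout 1, the highest array as for Il17rb, the difference was 0.47. On a second, dimmer probe set the knockouts read 6.45, 5.82 and 6.12 and the controls 5.93 and 5.52, so that the groups overlapped there. Osmr, which encodes the partner chain of the IL-31 receptor, was dim on every array (4.65 to 5.01). These 2 genes make 8.7% of the 23 members, beside 2.68% of all genes with every knockout above both controls. In the other direction the share was 0% of members and 4.5% of all genes. With 3 arrays against 2, an exact permutation test of a single gene cannot give a p below 0.1.

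The mean of the interferon list moved with Il17rb, though not every gene in it did. The mean of 11 interferon response genes was 8.33 and 8.51 in the controls and 11.46, 9.14 and 8.75 in the knockouts, the same order of arrays as for Il17rb. Of these 11 genes, 10 were highest in knockout 1. Rsad2 was highest in knockout 2 (13.69), with 13.23 in control 1 and 13.11 in knockout 1. Ifit2 was lowest in knockout 2 (9.23, against 9.73 to 11.50 elsewhere). The mean of 9 T and natural killer cell genes above the dim level (Cd3g, Ncr1 and Tbx21 were dim) was 6.49 and 6.68 in the controls and 7.69, 8.15 and 6.86 in the knockouts, so it was highest in knockout 2 and not in knockout 1. Of these 9 genes, 7 were highest in knockout 2 and 2, Bcl11b and Thy1, in knockout 1. The part of these lists in the Il17rb result was not tested.

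**Figure D2:**
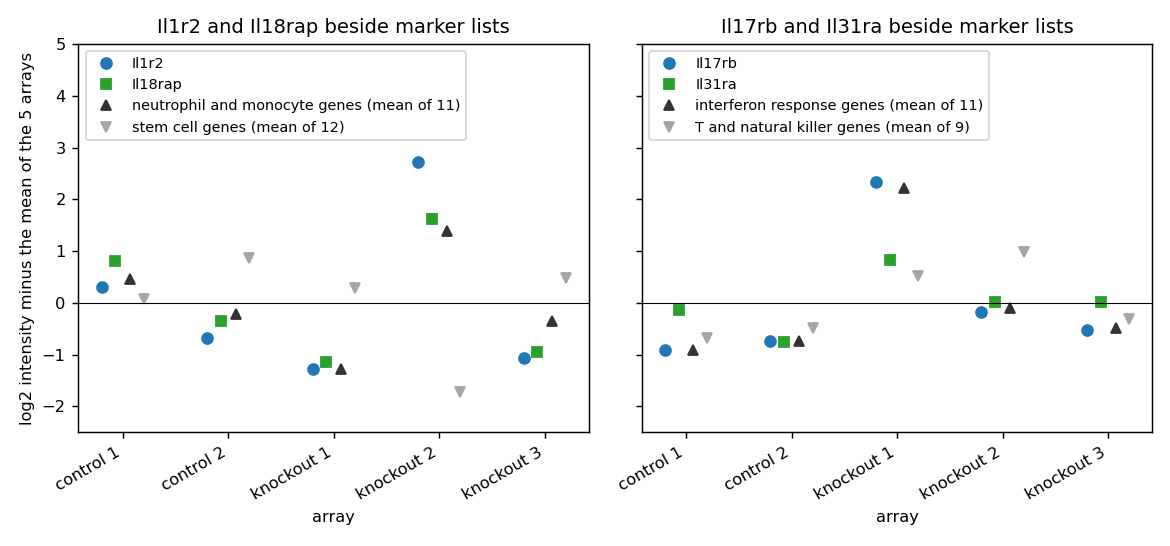
Deviation of log2 intensity from the mean of the 5 arrays (vertical axis) for single genes (coloured) and for the mean of a marker list (grey), by array. Il1r2, Il18rap and the neutrophil and monocyte list share 1 order of arrays with knockout 2 highest and knockout 1 lowest, the stem cell list is lowest in knockout 2, and Il17rb and the interferon list are highest in knockout 1.

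A single array lay at least 1 log2 unit from the nearest other one for 8 members, against 8.84% of all genes. In knockout 2, 6 of 23 members (26.1%) lay at least 1 log2 unit above the nearest other array, against 3.52% of all genes. They were Il1r2, Il1rn, Il18r1, Il17ra, Il13ra1 and Il10ra. Il13ra1 passed the dim level through knockout 2 alone. With the level applied to the mean of the other 4 arrays, a choice made after seeing the data, the count was 5 of 22 (22.7%), against 3.21% of all genes. Probe sets were still chosen over all 5 arrays, so this count was not free of knockout 2. For Il10ra a second probe set was brighter on the other 4 arrays (6.08 to 6.23, against 5.75 to 6.03). With 7.06 in knockout 2, that probe set lay less than 1 log2 unit above them. A single member, Il17re, lay as far below the others in that array (4.35%, against 3.81% of all genes). Il17rb was counted for knockout 1 (4.35%, against 0.445%). Each gene was counted once, at its wider gap; Il18r1, counted for knockout 2, also had knockout 3 as its lowest array by 1.24. Knockout 2 held the highest value for 11 members (47.8%, against 26% of all genes). Il6ra just missed, with 8.26 in knockout 2 and 6.52 to 7.26 elsewhere.

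**Figure D3:**
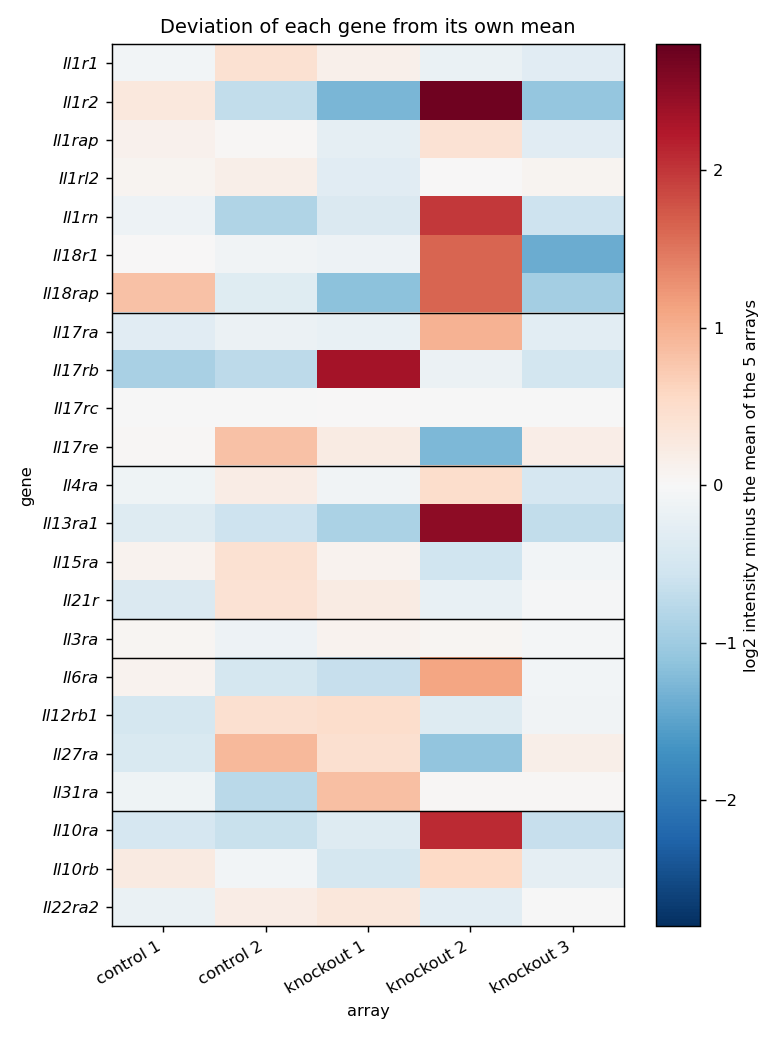
Heat map of log2 intensity minus the gene's mean over the 5 arrays, for 23 genes (rows, in families) and 5 arrays (columns). Strong red is concentrated in the column of knockout 2, with Il17rb in knockout 1 as the exception, while Il17re and Il27ra are lowest in knockout 2.

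Within the IL-1 family, the members Il1r2 and Il1rn, whose products restrain IL-1, were far higher in knockout 2. Sigirr, an inhibitory receptor of this family outside the gene set, was lowest there (8.09, against 8.79 to 9.83 elsewhere). Il1r2, the decoy receptor, read 8.48 and 7.50 in the controls and 6.90, 10.90 and 7.10 in the knockouts. Knockout 2 was by far the highest, and the other knockouts were below both controls. The log2 difference of 0.31 (SE 1.38; limma adjusted p = 1) became -0.99 without knockout 2 and -0.18 without control 2. Il1rn, the IL-1 receptor antagonist, read 6.56 and 5.85 in the controls and 6.31, 8.69 and 6.12 in the knockouts. Its difference of 0.83 (SE 0.89) was 0.0062 without knockout 2, and all 3 of its probe sets were highest in that array. The ligand gene Il1b followed the same pattern, with 10.06 in knockout 2 and 6.10 to 6.55 elsewhere.

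The signalling chains of the IL-1 receptor were not set far apart in this way. Il1r1 read 7.94 and 8.45 in the controls and 8.15, 7.82 and 7.70 in the knockouts (difference -0.30, SE 0.24), with the groups overlapping. Il1rap, the accessory chain that IL-1, IL-33 and IL-36 receptors share, read 8.04 and 7.95 against 7.66, 8.31 and 7.61 (difference -0.13, SE 0.27). Il1rap was highest in the same array as Il1r2 and Il1rn, but only 0.27 above the next array. Il1rl2, the IL-36 receptor chain, stayed between 6.58 and 7.06 on every array. The orphan receptor genes Il1rapl1 and Il1rapl2, best known from neurons, were dim.

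Both chains of the IL-18 receptor were highest in knockout 2. Il18r1, which binds IL-18, read 7.58 and 7.49 in the controls and 7.43, 9.20 and 6.19 in the knockouts, so that knockout 3 was also set off below. Il18rap, its accessory chain, read 10.06 and 8.90 against 8.10, 10.86 and 8.30. The differences were 0.07 (SE 0.91) and -0.39 (SE 0.99), and -0.72 and -1.28 without knockout 2. That of Il18rap was 0.19 without control 1 and 0.10 without knockout 1, so its sign rested on single arrays. A second Il18rap probe set gave the same order of arrays. Il18, the ligand, ran the other way: it read 9.84 and 9.76 in the controls and 9.19, 7.68 and 9.42 in the knockouts, lower in each knockout than in both controls, with a difference of -1.04 (SE 0.58; limma adjusted p = 1).

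The genes of this group are neighbours. Il1r2, Il1r1, Il1rl2, Il1rl1, Il18r1 and Il18rap follow each other on chromosome 1 with 0 protein-coding genes between them in the RefSeq annotation (GRCm38.p6). The members at the ends of this row, Il1r2 on one side and Il18r1 and Il18rap on the other, were highest in knockout 2, and Il1r1 and Il1rl2 between them were not.

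Some of the other cell type lists moved with Il1r2 and Il18rap and some did not. The mean of 11 neutrophil and monocyte genes was 12.71 and 12.03 in the controls and 10.98, 13.64 and 11.90 in the knockouts. Il1r2 and Il18rap had this same order of arrays, knockout 2 highest, then control 1, control 2, knockout 3 and knockout 1. The mean of 12 stem cell genes was 7.95 in knockout 2 and 9.76 to 10.54 elsewhere, and that of 9 B lineage genes 9.21 against 6.76 to 7.18. Of 9 mast cell and basophil genes, 7 lay above the dim level (Fcer1a and Tpsb2 did not), with a mean of 9.53 in knockout 2 and 8.15 to 8.41 elsewhere. Of these 7 genes, 4 were highest in knockout 2 and Cma1 in knockout 1. Kit and Gata2, which are also in the stem cell list, were lowest in knockout 2. The immediate early genes (8 of 10 above the dim level, without Fosb and Junb) averaged 11.68 in knockout 2 against 7.46 to 7.82. The macrophage list of 13 genes averaged 10.69 and 9.79 in the controls and 8.26, 8.65 and 9.44 in the knockouts. Whether any of these accounts for the receptor values was not tested.

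Il17ra, the signalling chain common to the IL-17 receptors, read 9.74 and 9.89 in the controls and 9.84, 11.01 and 9.76 in the knockouts. Without knockout 2 its difference of 0.39 (SE 0.44) was -0.02, so the remaining arrays lay within a narrow band, and a second probe set was also highest in knockout 2 (8.26 against 6.46 to 6.55). Il17re, the chain for IL-17C, read 9.02 and 9.81 against 9.22, 7.72 and 9.17, a difference of -0.71 (SE 0.57) and -0.22 without knockout 2. A second Il17re probe set did not show this, with 8.63 in knockout 2 and 8.46 to 8.71 elsewhere. Il17rc, needed with Il17ra for IL-17A, read the same 6.12 on 4 of 5 arrays and 6.15 on knockout 1. Values equal to 4 decimals occurred on at least 2 arrays for 3 members (13%) and for 23.1% of all genes. Il17rd was dim.

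Il13ra1, which joins Il4ra to form the receptor for IL-4 and IL-13 outside lymphocytes, read 5.75 and 5.54 in the controls and 5.22, 8.62 and 5.43 in the knockouts. It was the 1 member for which all arrays but knockout 2 lay below the dim level, so it entered through that array alone and its difference of 0.78 (SE 1.14) describes that array; without it the difference was -0.32. Its other 4 probe sets were dim on average. Of these, 3 were highest in knockout 2 (6.67, 7.96 and 6.60), and 1 was not, with 4.93 there and 4.29 to 4.94 elsewhere. Il4ra itself read 7.05 and 7.39 against 7.08, 7.67 and 6.71 (difference -0.07, SE 0.33). Il4, the ligand, was higher in each knockout (7.13, 6.75 and 7.11) than in both controls (6.59 and 6.57), by 0.42 (SE 0.18; limma adjusted p = 1).

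Il15ra, which presents IL-15, read 7.90 and 8.24 in the controls and 7.90, 7.25 and 7.72 in the knockouts, a difference of -0.44 (SE 0.26); the groups touched, with knockout 1 at the lower control's level. Its neighbour on chromosome 2, Il2ra, outside the gene set described here, differed by 0.65. Il21r, next to Il4ra on chromosome 7, read 6.90 and 7.71 against 7.54, 7.10 and 7.27 (difference -0.0064), with the controls at both ends of the range. Il9r, whose product shares the common gamma chain, and Il13ra2, a decoy for IL-13, were dim.

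Il3ra, the binding chain for IL-3, was nearly flat at 6.20 to 6.45. Its signalling partner Csf2rb, the common beta chain, was not: it read 10.43 and 9.39 in the controls and 9.16, 11.65 and 8.97 in the knockouts. Il5ra, the binding chain for IL-5, was dim with 3.75 to 4.56.

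Il6ra, the binding chain for IL-6, differed by 0.33 (SE 0.57) and by -0.15 without knockout 2, and its second probe set was not highest there (6.68, within 6.57 to 6.80). Il6st, the shared signalling chain gp130, stayed at 7.62 to 8.41. Il27ra, which pairs with gp130 for IL-27, read 8.26 and 9.60 in the controls and 9.16, 7.60 and 8.87 in the knockouts. Control 1 and knockout 2 were the low arrays, and the difference of -0.39 (SE 0.65) was 0.08 without knockout 2, 0.28 without control 2 and -1.06 without control 1. Il12rb1, shared by IL-12 and IL-23 receptors, read 6.15 and 7.10 against 7.14, 6.27 and 6.55 (difference 0.03), and its partner Il12rb2 was dim.

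Il10ra, the binding chain for IL-10, read 5.92 and 5.77 in the controls and 6.03, 8.47 and 5.75 in the knockouts. Outside knockout 2 it lay close to the dim level, and the difference of 0.90 (SE 0.90) was 0.04 without that array. A second probe set read 7.06 in knockout 2 and 6.08 to 6.23 elsewhere, and the third, a dim one, 4.69 against 4.69 to 4.95. Il10rb, the chain shared by IL-10, IL-22 and interferon lambda receptors, read 10.16 and 9.85 against 9.43, 10.49 and 9.66 (difference -0.15, SE 0.37). It lies on chromosome 16 between Ifnar2 and Ifnar1, with Ifngr2 next; of these 3, Ifngr2 read 10.32 in knockout 2 and 6.81 to 8.41 elsewhere. Il22ra2, the soluble IL-22 binding protein, stayed at 7.06 to 7.68, and the genes Il20ra, Il20rb and Il22ra1 for IL-20 and IL-22 receptor chains were dim.

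The 10 dim members read 3.52 to 5.88 on any array, with differences of -0.10 to 0.33. One of them, Il22ra1, had all knockouts (4.82, 4.90 and 4.84) above both controls (4.54 and 4.52), at a level where RMA values are compressed. At the threshold, Il13ra1 (mean 6.11) and Il17rc (6.13) were the lowest members inside and Il20ra (5.52) and Il13ra2 (5.49) the highest outside. Of 16 receptor complexes made of 2 named chains, 11 had both chains above the dim level. Those without were the receptors for IL-5, IL-12, IL-20, IL-22 and IL-31.

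**Figure D4:**
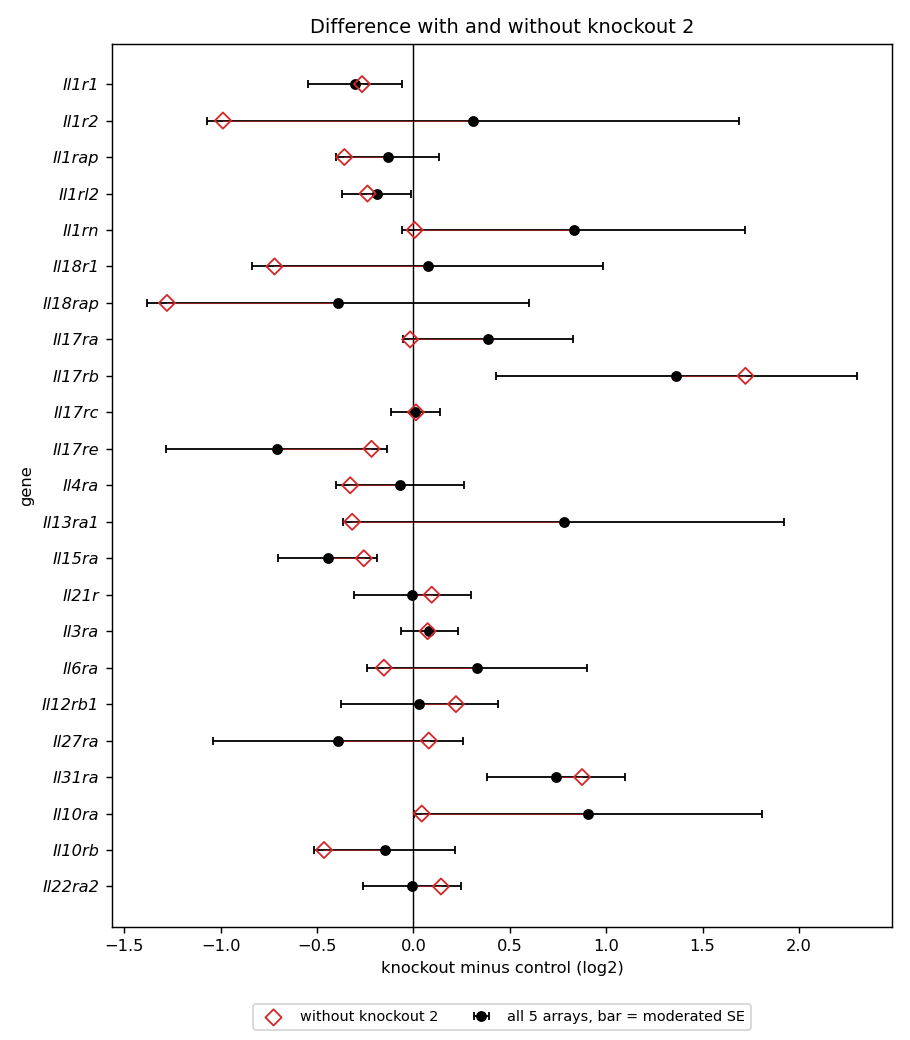
Difference of knockout minus control (log2, horizontal axis) for 23 genes with all 5 arrays (black, bar = moderated SE from limma) and without knockout 2 (open red). Leaving knockout 2 out turned the sign for 8 members, and Il17rb and Il31ra stayed above 0 under both.

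Without knockout 2, the sign turned for 8 of 23 members and the median became -0.15. The 2 remaining knockouts lay below both controls for 6 members (26.1%, against 13.5% of all genes with these 4 arrays), namely Il1r2, Il18r1, Il18rap, Il1rap, Il13ra1 and Il10rb. Il13ra1 was dim on all 4 of these arrays. With the dim level applied to them, and probe sets still chosen over all 5 arrays, the count was 5 of 22 (22.7%, against 13.4%). On the other Il1rap probe sets above the dim level, the 2 remaining knockouts were not both below both controls. The same held for the second Il10rb probe set. The 2 remaining knockouts lay above both controls for 2 members, Il17rb and Il31ra (8.7%, against 13.9%). Il17rb and Il31ra then differed by 1.72 and 0.87.

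Among genes around the receptors, chosen as lists with earlier results of these data known, 0 passed limma in any list, with the same 0% over all probe sets. For the counts in these lists, knockout 2 set apart 3.52% of all genes upward and 3.81% downward. Every knockout lay above both controls for 2.68% of all genes and below both for 4.5%. Of 20 shared and related receptor chains above the dim level, 7 were higher and 13 lower in knockouts with a median of -0.08. Ifngr1, the binding chain for interferon gamma, was the 1 of them with all knockouts (9.94, 10.05 and 9.76) above both controls (9.34 and 9.48). In this list 6 genes were set apart by knockout 2, Csf2rb, Csf2rb2, Csf3r and Ifngr2 upward and Kit and Ghr downward. The next smallest p-values belonged to Crlf3 (difference -0.23, SE 0.19) and Sigirr, an inhibitory IL-1 family receptor (-0.52, SE 0.50), both with overlapping groups. Of 16 ligand genes, 10 were higher and 6 lower (median 0.10), and knockout 2 set apart Il1b, Il1f9 and Osm upward and Il18 downward. Ebi3, a subunit of IL-27, differed by -0.49 (SE 0.34), with overlap.

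All 10 measured JAK and STAT genes had overlapping groups and none was set apart by a single array, with 5 higher and 5 lower and a median of 0.0022. Stat2, which acts downstream of the interferon receptors, differed most (0.70, SE 0.43) and read 8.03 in knockout 1 and 6.45 to 7.14 elsewhere. Jak2 and Stat4 differed by -0.19 (SE 0.19) and -0.26 (SE 0.33). Of 17 inhibitors of cytokine signalling, 8 were higher and 9 lower. Socs2, a feedback inhibitor of growth hormone and related receptors, read 7.55, 6.92 and 7.31 in the knockouts and 7.97 and 9.16 in the controls, a difference of -1.31 (SE 0.42; limma adjusted p = 1) with no overlap. Control 2 alone lay well above the rest there. Socs3, the inhibitor of gp130 signalling, read 6.61 and 8.21 in the controls and 8.32, 10.06 and 8.21 in the knockouts (difference 1.45, SE 0.79), and Socs5 differed by -0.77 (SE 0.77). Of 15 genes of IL-1, IL-18 and IL-17 signalling, 10 were higher and 5 lower. Irak3, an inhibitory IRAK, was lower in every knockout (8.78, 9.67 and 9.33 against 9.73 and 9.94), and Nfkbiz, an inducible NF-kappaB cofactor, was higher in every knockout (9.29, 11.87 and 8.75 against 7.75 and 8.58), with knockout 2 far above the rest. Their differences were -0.57 (SE 0.30) and 1.80 (SE 1.03), both with a limma adjusted p of 1. Irak1, an IRAK that transmits the signal, differed by -0.31 (SE 0.20) and its groups overlapped.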

How the data were processed

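The data were 5 columns of log2 intensities, 1 per array, summarised by the authors: the submitters' processing notes name RMA and Expression Console, with no version given. RMA removes shifts shared by most transcripts and compresses the lowest values. Per the labels' protocols, cRNA was amplified in repeated rounds, which favours 3' ends. Of 45101 rows, 64 control probe sets were left out, as were the 40% of the rest with the lowest mean, leaving 27022. Platform annotation gave 1 gene symbol to 34945 of 45037 probe sets, several to 932 and none to 9160, and probe sets with several named no gene. Differences, as knockout minus control, came from limma 3.58.1 (R 4.3.3; lmFit, eBayes, no covariate, two-sided, Benjamini-Hochberg over all probe sets tested), with the fit checked on simulated data. SEs are moderated. The number of arrays limits the precision.

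The members and lists were chosen with earlier results of these data known. Every member is named; full values are given for members whose groups do not overlap, the 6 largest differences, the 6 brightest, and those with 1 array at least 1 log2 unit from the next, and in lists for genes without overlap, with up to 3 of smallest p. Receptor complexes were listed after values were seen, as were the motifs and neighbours. Alternatives were an intensity trend, other filters, array weights, cyclic loess, median centring, probe set means, fits without single arrays and a replicate block. Figures were drawn with matplotlib 3.10.9.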

Additional observations from a re-analysis of the deposited data

How the results depend on the processing

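No member passed limma under any of 13 alternatives (0 in each; the lowest adjusted p of a member was 0.856). The median difference of the members lay between -0.15 and 0.08 in the fits without single arrays, and the largest single difference from 1.27 to 1.90; it was that of Il17rb except without knockout 1, where Il13ra1 led with 1.38, and with array weights it was 2.76. The count of members with all knockouts above both controls was 1 with a filter on the lowest 60%, and 2 to 5 without single arrays (4 without control 1, 5 without control 2). The count below both controls was 1 with cyclic loess, 1 with probe set means, and 0 to 6 without single arrays (6 without control 1, 2 without knockout 1, 6 without knockout 2, 1 without knockout 3). The cause of the shifts under other processing was not tested. Fewer arrays make it easier for groups not to overlap. Without knockout 2 the shares over all genes were 13.9% above and 13.5% below both controls. For the fits without another single array no such share was at hand, so their counts say nothing particular to the members. The difference of Il13ra1 was -0.32 with array weights, and from -0.32 to 1.38 without single arrays. With the replicate number as a block (replicate block) the largest difference was 1.90, the median 0.08 and the count passing 0. No control carried the number 3, so knockout 3 did not enter these differences. They equalled those of the fit without knockout 3 and are not a separate check. Same-numbered arrays had deviations from their group means that correlated at -0.54 (number 1) and -0.57 (number 2). Both values rest on the same difference between the controls and on a knockout group in which knockout 2 stood apart. They are thus not independent and cannot decide whether the numbers pair the samples. Dim members and values near 5.77 are compressed by RMA, so their differences are uncertain in size.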
